A study of Mus musculus with 2 samples.

Results

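The genes described here encode the chains of the collagens. Members were taken by symbol from the deposited gene table, as every row whose name reads Col, a type number, the letter a and a chain number. This gave 44 genes of the 47644 listed, with no symbol repeated. The rule used symbols and no measured value, but it was set with earlier results of these data known. By the known structure of their proteins they were grouped into 11 fibrillar chains, 6 basement membrane chains (all of type IV), 9 fibril-associated chains (FACIT, fibril-associated collagens with interrupted helices), 4 transmembrane chains and 14 chains of other types. The OIR library was made from eyeballs of C57BL/6 mice with oxygen-induced retinopathy, a model in which high oxygen stops the growth of retinal vessels and the later return to room air leaves the retina short of oxygen. Exposure to hyperoxia began at day 7 and lasted 5 days, and the eyes were taken at day 17. The control library was made from eyeballs of C57BL/6 mice labelled as control, for which the labels give no collection day of their own. Each group was 1 library of total RNA, and the labels give neither the number of eyes or animals behind it nor their sex.

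Collagens are extracellular proteins whose chains wind round each other into a rigid helix. Fibrillar types form the tensile cables of sclera, cornea and vitreous, type IV forms the sheet beneath epithelia and around vessels and the lens, and FACIT types sit on the surface of fibrils. Transmembrane collagens anchor cells to the matrix, and further types form beaded filaments, anchoring fibrils and hexagonal networks. Chains of a type are made from separate genes and must be assembled in the cell before export, after hydroxylation and folding by dedicated enzymes. In a whole eyeball they come from many tissues at once.

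Gene reads came to 20378793 in OIR and 15741235 in the control. Levels are given as FPKM, the read count scaled by transcript length and library size, and a difference is that of log2(FPKM + 1) in OIR less that in the control, which makes changes at low levels look smaller. Genes that reached an FPKM of 1 in OIR or in the control are referred to as tested, a word that stands for this filter and for no statistical test. The term 2-fold is one of size, for differences of 1 or more (higher) or -1 or less (lower). Beside it stands the ratio of read shares, OIR over control, with its exact conditional 95% interval (Clopper-Pearson). With 1 library in each group no difference has a replicate check, and the intervals cover counting error only. PCR copies of a molecule were not told apart, so that reads are not independent. Rod photoreceptor genes, which mark the labelled tissue, summed to 16669.4 FPKM in OIR against 16460.9 in the control, and lens genes to 74327.1 in OIR and 105069.7 in the control, although the lens gene Lim2 was at 0 reads in both. Of the other marker lists, all 5 tested erythrocyte genes, 5 of 8 of the retinal pigment epithelium and 2 of 5 of Schwann cells lay above 0. Of all tested genes 64.9% did.

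Taken as a whole the collagen chains lay above 0 in OIR as often as other genes, but the classes went different ways. Of the 44 chains 37 were tested, and 24 of these lay above 0 and 13 below, the same share as the 64.9% of all 15883 tested genes above 0. At least 2-fold higher were 4 chains, or 10.8% of those tested, where 3.07% of all tested genes were, and 0 were at least 2-fold lower, where 0.718% of all tested genes were. The 4 were Col17a1 of epithelial hemidesmosomes, Col5a3 of type V fibrils, Col2a1 of the vitreous and Col8a1 of network-forming type VIII. Differences of the tested chains ran from -0.73 for Col9a1 to 1.70 for Col17a1, with a median of 0.26, against a median of 0.11 over all tested genes. All 44 chains together took 0.362% of gene reads in OIR and 0.340% in the control, which is a ratio of 1.07 (1.06 to 1.08), but this direction depends on the scaling. The ratio was 0.968 with the authors' scaling factors, 0.983 with lens, erythrocyte, muscle and mitochondrial genes left out of the totals and 0.977 relative to the median tested gene. In these bulk samples more cells of a type and more RNA per cell cannot be told apart.

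**Figure D1:**
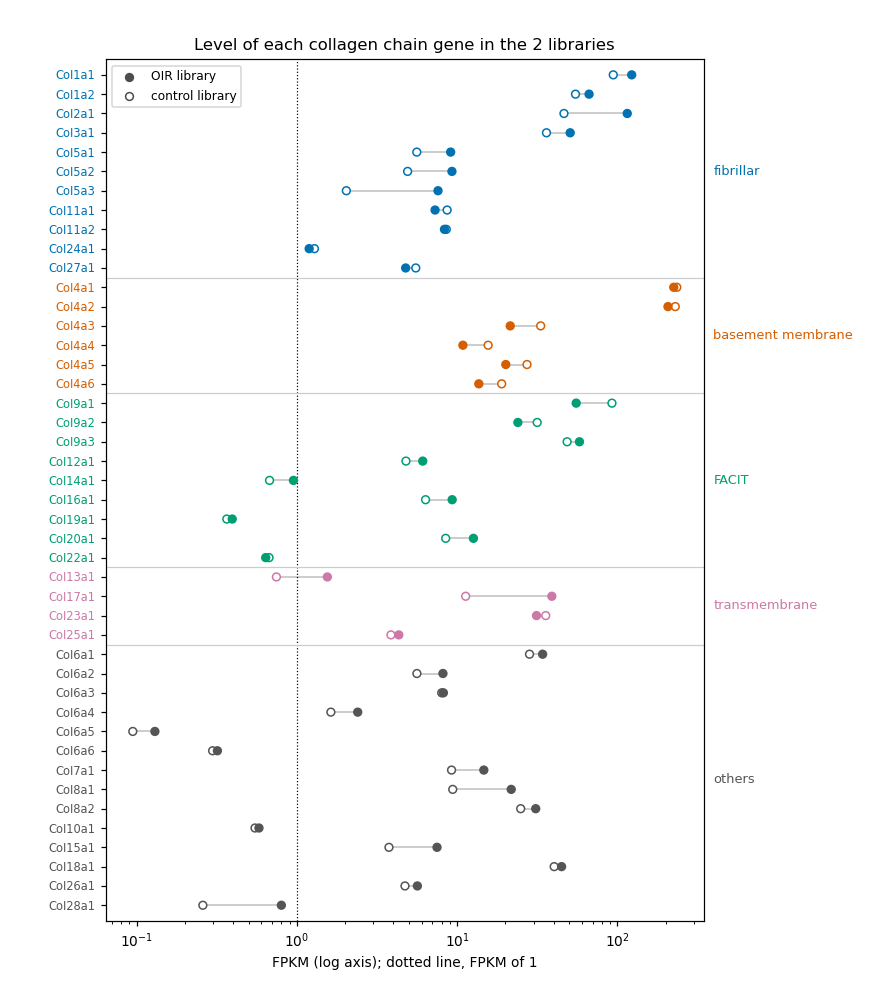
FPKM of the 44 collagen chain genes in the OIR library (filled points) and the control library (open points) on a log axis, 1 row per gene, coloured by class, with a dotted line at an FPKM of 1. Col4a1 and Col4a2 have the highest levels in both libraries, and the widest gaps among the abundant chains are those of Col2a1 and Col17a1, with the OIR point to the right.

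The order of the levels was much the same in both libraries at the top. In both, Col4a1 and Col4a2 came first by FPKM and Col1a1 next. Col2a1 was in place 4 in OIR against 7 in the control, Col9a1 in place 7 in OIR against 4 in the control, and Col17a1 in place 10 in OIR against 18 in the control. Levels of different genes depend on the transcript length used. The length implied by reads and FPKM was under the deposited gene length for 42 of the 44 chains, by up to 3.33 times for Col1a1. With the deposited length, the value computed like FPKM from the read counts was for Col4a1 124 in OIR against 129 in the control, Col1a1 36.9 in OIR against 28.3 in the control, and Col2a1 36.2 in OIR against 14.6 in the control. Ratios between the libraries do not depend on this length.

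Fibrillar chains as a class took a larger share of reads in OIR. They had 0.0827% of gene reads in OIR and 0.0563% in the control, which is a ratio of 1.47 (1.43 to 1.51), and 22.8% of all collagen reads in OIR against 16.6% in the control. Of the 11 chains, all tested, 7 lay above 0 and 4 below, about the same share as the 64.9% of all tested genes above 0. At least 2-fold higher were 2, where 3.07% of all tested genes were. The median difference was 0.38, against 0.11 over all tested genes. The 7 above 0 were the chains of types I, II, III and V, and the 4 below were those of types XI, XXIV and XXVII.

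Type I, the main fibril of sclera and corneal stroma, and type III were moderately higher. Col1a1 had 4461 reads and 123 FPKM in OIR, against 2644 reads and 94.3 FPKM in the control, a ratio of 1.303 (1.242 to 1.368). Its partner chain Col1a2 had 3106 reads and 66.6 FPKM in OIR, against 1974 reads and 54.8 FPKM in the control, with a ratio of 1.22 (1.15 to 1.29). Col3a1, whose chains form a helix of a single kind in elastic tissues and vessel walls, had 1871 reads and 50.8 FPKM in OIR, against 1028 reads and 36.1 FPKM in the control, a ratio of 1.406 (1.302 to 1.518). The OIR library was the higher for all 3 genes, and none reached 2-fold.

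Type V chains, which start type I fibrils and limit their width, stood further apart. Col5a3 (chromosome 9, 20770050 to 20815067, mm10, minus strand) had the lowest FPKM of them in both libraries. This order depends on the length used. With the deposited length the OIR level of Col5a3 was 6.24, against 5.13 for Col5a1 and 4.17 for Col5a2. Col5a3 was then the lowest in the control only. It had 778 reads and 7.600 FPKM in OIR, against 161 reads and 2.04 FPKM in the control, a difference of 1.502 and a ratio of 3.73 (3.15 to 4.45), the highest ratio among the tested chains. Col5a2 had 563 reads and 9.28 FPKM in OIR, against 230 reads and 4.91 FPKM in the control, a ratio of 1.89 (1.62 to 2.21). Col5a1 had 878 reads and 9.11 FPKM in OIR, against 417 reads and 5.60 FPKM in the control, a ratio of 1.63 (1.45 to 1.83). All 3 genes were thus higher in OIR, and the interval of Col5a3 lay above those of the other two. Over the 3 genes the type had a ratio of 2.12 (1.96 to 2.30). Genes on the other strand share 2.50% of the exon bases of Col5a1 in GENCODE M21. The sources do not state whether strand was used in counting, so how reads of that stretch were counted is not known.

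Markers of the cells that could supply these fibrils did not go 1 way. Of 11 tested markers of keratocytes and scleral fibroblasts 3 lay above 0 and 8 below, where 64.9% of all tested genes lay above 0. The 12 listed summed to 812.8 FPKM in OIR against 1083.0 in the control. Ptgds alone gave 602.7 of this in OIR and 791.6 in the control, so the sums mostly follow 1 gene. Of 11 pericyte and smooth muscle markers 8 lay above 0, or 72.7% against 64.9% of all tested genes. They summed to 244.9 FPKM in OIR against 202.2 in the control. Rgs5 alone gave 95.7 of this in OIR and 56.6 in the control, so the higher sum in OIR mostly follows 1 gene. Extraocular muscle markers, 8 of 9 tested above 0, summed to 144.4 FPKM in OIR against 135.1 in the control, and osteoblast markers were scarce, with Bglap2 and Ibsp at 0 reads in both libraries. The part of these cells in the fibrillar values was not tested.

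Col2a1 encodes the chain of type II collagen, the fibril of vitreous and cartilage, and also supplies a chain of type XI (chromosome 15, 97975602 to 98004695, minus strand). It had 3762 reads and 115 FPKM in OIR, against 1170 reads and 46.4 FPKM in the control, a difference of 1.29 and a ratio of 2.48 (2.33 to 2.65). The type XI genes were not higher with it. Col11a1 had 443 reads and 7.29 FPKM in OIR, against 407 reads and 8.67 FPKM in the control, a ratio of 0.841 (0.733 to 0.964). Col11a2 had 506 reads and 8.34 FPKM in OIR, against 401 reads and 8.56 FPKM in the control, and its ratio of 0.975 (0.853 to 1.11) had an interval that includes 1. Types II, IX and XI together took 13.1% of collagen reads in both libraries. Of the 7 cartilage markers only Sox9, a transcription factor of chondrocytes that retinal glia also express, reached an FPKM of 1, at 12.9 in OIR against 5.36 in the control, a ratio of 2.40 (2.12 to 2.71). Acan, the main proteoglycan of cartilage, had 4 reads in OIR against 6 in the control, and Matn1 had 2 in OIR against 0 in the control.

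The remaining fibrillar chains were low. Col27a1, a fibrillar chain of cartilage, had 422 reads and 4.77 FPKM in OIR, against 377 reads and 5.52 FPKM in the control, a ratio of 0.865 (0.751 to 0.996). Col24a1 had 60 reads in OIR against 50 in the control, and its interval of 0.626 to 1.38 includes 1.

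**Figure D2:**
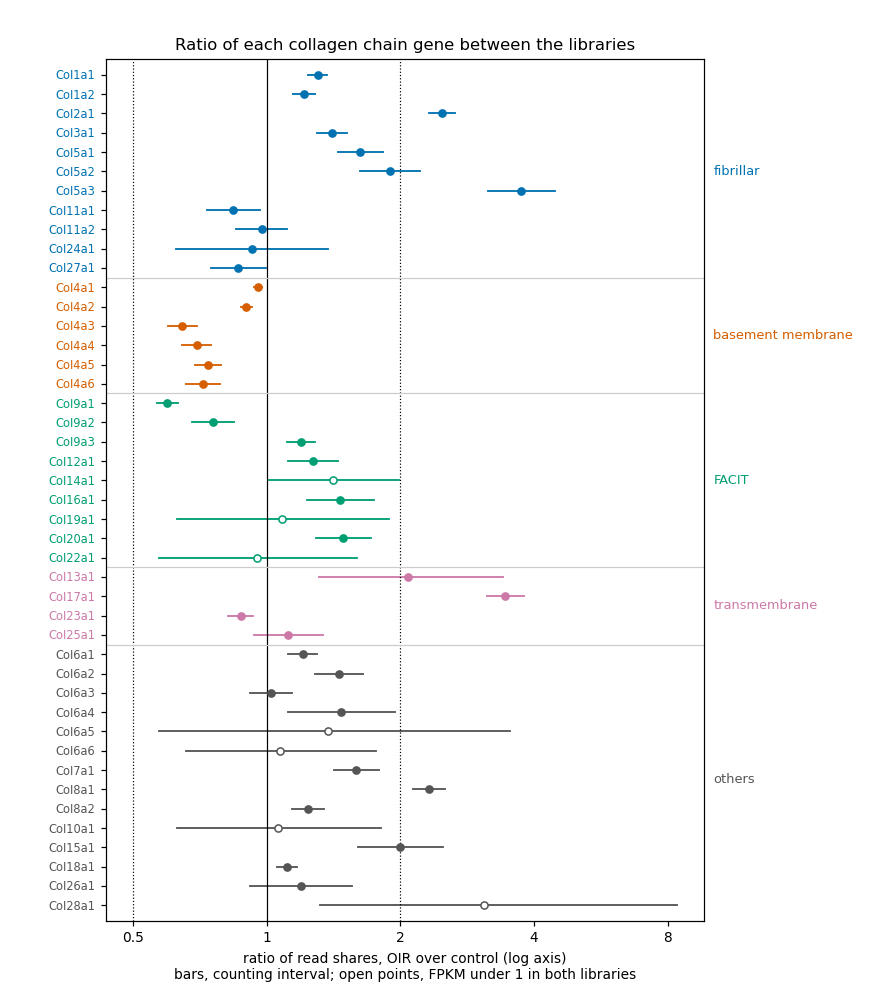
Ratio of read shares, OIR over control, of the 44 collagen chain genes on a log axis, with bars for the exact 95% counting interval, lines at 1 (solid) and at 0.5 and 2 (dotted), and open points for the 7 chains under an FPKM of 1 in both libraries. All 6 basement membrane chains lie left of 1, and Col5a3, Col17a1, Col2a1 and Col8a1 are the tested chains whose whole interval lies right of 2.

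Basement membrane chains were the most abundant class in both libraries and the class with a smaller share of reads in OIR for every member. They took 0.164% of gene reads in OIR and 0.185% in the control, with a ratio of 0.887 (0.873 to 0.901). They made up 45.2% of collagen reads in OIR and 54.4% in the control. All 6 differences were below 0, where 64.9% of all tested genes lay above it. Their median was -0.43, and none reached 2-fold. The chains split into the common helix of Col4a1 and Col4a2, found in nearly every basement membrane, and the chains Col4a3 to Col4a6 of specialised ones such as the lens capsule and the kidney filter.

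Scaled by total gene reads, the common chains were close to equal in both libraries. Col4a1 had 16699 reads and 225 FPKM in OIR, against 13479 reads and 235 FPKM in the control, a ratio of 0.957 (0.935 to 0.979). Col4a2 had 11443 reads and 207 FPKM in OIR, against 9814 reads and 229.9 FPKM in the control, a ratio of 0.901 (0.877 to 0.925). Other scalings set both chains lower in OIR. With the authors' scaling factors the ratios were 0.869 for Col4a1 and 0.818 for Col4a2. Relative to genes of their length they were 0.828 for Col4a1 and 0.787 for Col4a2. Beside them all 12 endothelial markers lay above 0, where 64.9% of all tested genes did. They summed to 229.1 FPKM in OIR against 141.1 in the control. The median difference of these markers was 0.73, so the common chains and the endothelial markers lay on opposite sides of 0.

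The specialised chains were lower by more. Col4a3 had 1272 reads and 21.5 FPKM in OIR, against 1521 reads and 33.2 FPKM in the control, a ratio of 0.646 (0.599 to 0.696). Col4a4 had 1259 reads and 10.9 FPKM in OIR, against 1398 reads and 15.6 FPKM in the control, a ratio of 0.696 (0.644 to 0.751). Both belong to the lower tail of the table, since 2.38% and 4.19% of tested genes had a difference as low or lower. Col4a5 had 1750 reads and 20.1 FPKM in OIR, against 1833 reads and 27.3 FPKM in the control, with a ratio of 0.738 (0.690 to 0.788). Col4a6 had 982 reads and 13.7 FPKM in OIR, against 1054 reads and 18.98 FPKM in the control, with a ratio of 0.720 (0.659 to 0.786). Their 4 intervals overlap each other and all lie below those of Col4a1 and Col4a2. Together these 4 chains had a ratio of 0.7002 (0.6744 to 0.7269), against 0.9332 (0.9171 to 0.9496) for the common pair. The lens list moved with them: all 11 tested lens markers lay below 0, with a median of -0.51 and a read ratio of 0.708 (0.707 to 0.710). Of all tested genes 64.9% lay above 0. The part of the lens in the type IV values was not tested. A gene on the other strand, C430014B12Rik, shares 5.65% of the exon bases of Col4a3.

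The type IV genes lie in head-to-head pairs. On chromosome 8 the spans of Col4a1 (minus strand, 11198423 to 11312826) and Col4a2 (plus strand, 11312805 to 11449287) overlap by 22 bases. On chromosome 1 the starts of Col4a4 (minus strand, 82448423 to 82586849) and Col4a3 (plus strand, 82586921 to 82722059) have 71 bases between them, and on chromosome X those of Col4a6 and Col4a5 have 1308. The stretches where the first pairs meet are shown because they lie at the starts of both genes of a pair. They are RefSeq sequences on GRCm38.p6, given on the plus strand at chr8:11312805-11312826 and chr1:82586850-82586920, with capitals on a match to GGGCGG, the GC box.
Col4a1 and Col4a2: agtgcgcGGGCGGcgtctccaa
Col4a4 and Col4a3: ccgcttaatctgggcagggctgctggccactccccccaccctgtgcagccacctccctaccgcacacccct
The first stretch holds 1 GC box and the second has no match to any of the 5 motifs searched. Both are rich in G and C, at 72.7% and 69.0% of bases.

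FACIT chains took 0.0331% of gene reads in OIR and 0.0383% in the control, which is a ratio of 0.864 (0.834 to 0.895), but this class value is set by 1 gene. Without Col9a1 the same ratio was 1.15, on the other side of 1. Of the 9 chains 6 were tested, 4 above 0 and 2 below, near the 64.9% of all tested genes above 0. The median difference was 0.27. None was 2-fold higher or lower.

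The 3 genes of type IX, a helix of 3 different chains on vitreous and cartilage fibrils, did not go together. Col9a1 (chromosome 1, 24177610 to 24252684, plus strand) had 2424 reads and 55.4 FPKM in OIR, against 3130 reads and 92.5 FPKM in the control, a difference of -0.73 and a ratio of 0.598 (0.567 to 0.631). It was the lowest tested chain, and 1.48% of tested genes had a difference as low or lower. Col9a2 had 678 reads and 23.95 FPKM in OIR, against 691 reads and 31.6 FPKM in the control, a ratio of 0.758 (0.681 to 0.844). Col9a3 had 1861 reads and 58.0 FPKM in OIR, against 1204 reads and 48.6 FPKM in the control, a ratio of 1.19 (1.11 to 1.29). The control was thus the higher for the first 2 genes and OIR for the last, with intervals that do not overlap. Col9a3 shares 6.07% of its exon bases with Tcfl5 on the other strand, the largest such share among the chains. Ciliary body and iris markers come from a tissue that lines the vitreous base. Of these markers 2 of 8 tested lay above 0, against 64.9% of all tested genes, with a median difference of -0.21. They summed to 752.4 FPKM in OIR against 669.9 in the control. Atp1b2 alone gave 595.3 of this in OIR and 473.9 in the control, so the higher sum in OIR follows 1 gene. The part of this tissue in the type IX values was not tested.

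FACIT chains of other types were higher in OIR where they were tested. Col20a1 had 588 reads and 12.6 FPKM in OIR, against 305 reads and 8.49 FPKM in the control, a ratio of 1.489 (1.295 to 1.716). Col16a1 had 387 reads and 9.31 FPKM in OIR, against 204 reads and 6.36 FPKM in the control, a ratio of 1.47 (1.23 to 1.75). Col12a1, which binds type I fibrils, had 626 reads and 6.10 FPKM in OIR, against 380 reads and 4.80 FPKM in the control, a ratio of 1.27 (1.12 to 1.45). These 3 intervals overlap each other and exclude 1. Of the untested chains Col14a1 had 104 reads in OIR against 57 in the control, Col19a1 had 35 in OIR and 25 in the control, and Col22a1 had 37 in OIR and 30 in the control. Among these the interval of Col14a1, 1.011 to 1.982, excluded 1, and those of Col19a1 and Col22a1 included it.

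Transmembrane chains took 0.0234% of gene reads in OIR and 0.0160% in the control, which is a ratio of 1.46 (1.39 to 1.54). This class value too is set by 1 gene: without Col17a1 the ratio was 0.917 (0.863 to 0.974), on the other side of 1, and without Col23a1 it was 2.78. Of the 4 chains, all tested, 3 lay above 0 and 1 below, where 64.9% of all tested genes lay above 0. Col17a1 encodes the chain that ties basal epithelial cells to their basement membrane at hemidesmosomes (chromosome 19, 47646344 to 47692094, minus strand). It had 2420 reads and 39.0 FPKM in OIR, against 542 reads and 11.3 FPKM in the control, a difference of 1.70 and a ratio of 3.45 (3.14 to 3.79). This was the highest difference among the chains and stood at percentile 99.4 of all tested genes. Col23a1 had 1971 reads and 31.3 FPKM in OIR, against 1739 reads and 35.8 FPKM in the control, a ratio of 0.876 (0.820 to 0.934). The lower chains had fewer reads: Col25a1 had 300 in OIR against 207 in the control, with an interval of 0.935 to 1.34, and Col13a1, which acts at the neuromuscular junction, 70 in OIR and 26 in the control, with a ratio of 2.08 (1.31 to 3.40). The interval of Col25a1 includes 1 and that of Col13a1 does not.

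Corneal and conjunctival epithelium markers moved with Col17a1. Of 12 tested markers 11 had differences above 0 and 8 were 2-fold higher, and their median was 1.253. Of all tested genes 64.9% lay above 0 and 3.07% were 2-fold higher. They summed to 1605.3 FPKM in OIR against 680.2 in the control, a read ratio of 2.40 (2.36 to 2.44). Keratin 5, Krt5, a filament of the basal cells that carry hemidesmosomes, stood at 391.2 FPKM in OIR against 109.8 in the control, a ratio of 3.56 (3.44 to 3.69). The interval of Col17a1 overlaps that of Krt5, but not those of all markers in the list. It lies above that of the keratin Krt14, 1.820 to 2.305, and below that of Dsp, 6.317 to 8.080. The part of the surface epithelium in the Col17a1 value was not tested.

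Of the other types, all 10 tested chains lay above 0, and 1 was 2-fold higher. Of all tested genes 64.9% lay above 0 and 3.07% were 2-fold higher. The lowest difference of the class was 0.03, for Col6a3, and its direction depends on the scaling. The 14 chains took 0.0593% of gene reads in OIR and 0.0444% in the control, which is a ratio of 1.338 (1.299 to 1.378), and the median difference was 0.33. Col7a1, which forms the anchoring fibrils beneath hemidesmosomes, had 885 reads and 14.7 FPKM in OIR, against 430 reads and 9.23 FPKM in the control, a ratio of 1.59 (1.42 to 1.79). It was thus higher in OIR beside Col17a1, but by less, and the epithelial markers given there stood higher beside both.

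Type VIII, the hexagonal network of Descemet's membrane behind the cornea and a product of vessel wall cells, was higher for both of its chains, but unequally. Col8a1 (chromosome 16, 57624258 to 57754737, minus strand) had 2265 reads and 21.8 FPKM in OIR, against 755 reads and 9.39 FPKM in the control, a difference of 1.13 and a ratio of 2.32 (2.13 to 2.52). Col8a2 had 1474 reads and 30.9 FPKM in OIR, against 918 reads and 24.9 FPKM in the control, a ratio of 1.24 (1.14 to 1.35). The intervals of the 2 chains do not overlap. The multiplexin chains, which sit in basement membrane zones and release anti-angiogenic fragments such as endostatin from type XVIII, also differed. Col15a1 had 297 reads and 7.49 FPKM in OIR, against 115 reads and 3.76 FPKM in the control, a ratio of 2.00 (1.60 to 2.50). Col18a1 had 3451 reads and 44.9 FPKM in OIR, against 2396 reads and 40.3 FPKM in the control, a ratio of 1.11 (1.06 to 1.17) that fell below 1 relative to genes of its length. Col15a1 stood further above the control than Col18a1, which is by far the more abundant. Beside Col8a1 and Col15a1 stand the marker lists of vessels. All 12 endothelial markers lay above 0, and 8 of 11 pericyte and smooth muscle markers (72.7%), against 64.9% of all tested genes. The 3 of this last list below 0 were Acta2, Myh11 and Cnn1. The part of vessel cells in these values was not tested.

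Type VI chains build beaded filaments around cells. Col6a1 had 1750 reads and 34.2 FPKM in OIR, against 1120 reads and 28.3 FPKM in the control, a ratio of 1.207 (1.119 to 1.302). Col6a2 had 749 reads and 8.16 FPKM in OIR, against 398 reads and 5.61 FPKM in the control, a ratio of 1.45 (1.29 to 1.65). Col6a3 had 789 reads and 8.21 FPKM in OIR, against 595 reads and 8.02 FPKM in the control, and its ratio of 1.02 (0.920 to 1.14) falls to the other side of 1 with the authors' scaling factors. The first 2 chains were thus higher in OIR and the last was level. Col6a4 had 158 reads in OIR against 83 in the control, a ratio of 1.47 (1.12 to 1.94), with 3.39% of its exon bases shared with other genes. Col26a1 had 150 reads and 5.65 FPKM in OIR, against 97 reads and 4.73 FPKM in the control, with an interval of 0.919 to 1.56. The untested Col6a5, Col6a6 and Col10a1 had 16 to 43 reads in OIR and 9 to 31 in the control, with intervals that include 1. Col28a1, also untested, had 28 reads in OIR against 7 in the control, a ratio of 3.09 (1.32 to 8.38).

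**Figure D3:**
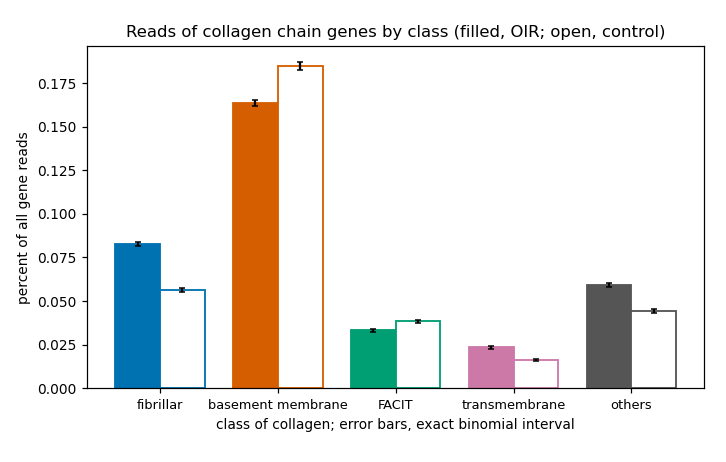
Percent of all gene reads taken by each class of collagen chains in the OIR library (filled bars) and the control library (open bars), with exact binomial 95% intervals, which cover counting error only. Basement membrane chains take 0.164% in OIR and 0.185% in the control, while the fibrillar chains take 0.0827% in OIR and 0.0563% in the control.

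Start regions are printed for the 2-fold higher chains with a RefSeq entry, to set the sequence before their starts side by side. Chains without an entry were Col2a1, Col1a1, Col4a3, Col5a2, Col9a3, Col12a1, Col14a1, Col22a1 and Col26a1. The 3 sequences are from RefSeq on GRCm38.p6, on the minus strand, read toward the gene: Col5a3 at chr9:20815068-20815217, Col8a1 at chr16:57754738-57754887 and Col17a1 at chr19:47692095-47692192, each ending at the base before the gene's span in the deposited table. Capitals mark the motif TATAAA of the TATA box, the CCAAT box and, as its reverse complement, the GC box already named, since all were searched on both strands.
Col5a3: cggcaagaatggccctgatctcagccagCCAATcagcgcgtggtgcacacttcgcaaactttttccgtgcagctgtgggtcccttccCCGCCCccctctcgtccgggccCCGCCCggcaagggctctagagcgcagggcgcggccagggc
Col8a1: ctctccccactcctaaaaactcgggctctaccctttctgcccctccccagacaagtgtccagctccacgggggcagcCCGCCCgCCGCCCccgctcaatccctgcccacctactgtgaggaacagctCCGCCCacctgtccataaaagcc
Col17a1: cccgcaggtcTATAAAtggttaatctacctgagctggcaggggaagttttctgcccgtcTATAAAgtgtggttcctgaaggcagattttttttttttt
The stretches of Col5a3 and Col8a1 have 150 bases each. That of Col17a1 has 98, since the part of its window inside the gene's span was left out. The Col5a3 stretch holds a CCAAT box and 2 GC boxes, that of Col8a1 3 GC boxes, and that of Col17a1 2 TATA boxes and no GC box. G and C make up 68.7% of the Col5a3 stretch, 64.7% of that of Col8a1 and 42.9% of that of Col17a1. Over the 150 bases before the start, 19 of the 35 chains with an entry held a GC box (54.3%), against 31.3% of 27025 genes. A CCAAT box was held by 22.9% of these chains and 27.7% of genes, and a TATA box by 11.4% of chains and 8.89% of genes. ACGTG, the core of the hypoxia response element, was held by 3 chains (8.57%) and 12.6% of genes, and TGANTCA, the AP-1 site, by 1 chain (2.86%) and 4.96% of genes. A match describes the letters only.

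Chains that can assemble into 1 helix were compared within each library as 11 pairs. For 5 pairs the interval of the change in the chain ratio includes 1, and for 6 it does not. The FPKM of Col1a1 over that of Col1a2 was 1.85 in OIR against 1.72 in the control, a change of 1.07 (0.996 to 1.16). That of Col4a1 over Col4a2 was 1.09 in OIR against 1.02 in the control, a change of 1.06 (1.03 to 1.10). Such pairs kept nearly the same chain ratio, and so did Col4a3 with Col4a4, at 0.929 (0.835 to 1.03), and Col4a5 with Col4a6, at 1.02 (0.919 to 1.14). Type VIII stood apart, with Col8a1 over Col8a2 at 0.703 in OIR against 0.376 in the control, a change of 1.87 (1.66 to 2.10). With the deposited length this ratio was 1.303 in OIR against 0.6975 in the control. Which chain is the more abundant in OIR thus depends on the length used. Chain ratios within a library depend on it for the other pairs too, but changes between the libraries do not. Type IX stood apart as well, with Col9a3 over Col9a2 at 2.42 in OIR against 1.54 in the control, a change of 1.58 (1.39 to 1.79), and Col9a1 over Col9a2 at 2.31 in OIR against 2.93 in the control, a change of 0.789 (0.701 to 0.889). Smaller changes were found for Col6a1 over Col6a2, at 0.830 (0.720 to 0.958), and Col6a3 over Col6a1, at 0.849 (0.745 to 0.967). The intervals of Col5a1 over Col5a2, 0.709 to 1.04, and Col11a1 over Col11a2, 0.715 to 1.04, include 1.

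**Figure D4:**
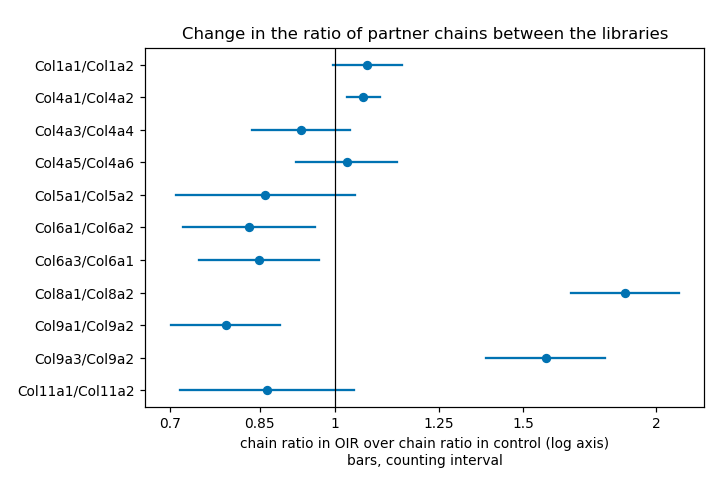
Change of the chain ratio between the libraries for 11 pairs of collagen chains, as the ratio in OIR over the ratio in the control on a log axis. Bars are approximate 95% counting intervals from the log odds, and a line marks 1. The pair Col8a1 and Col8a2 lies farthest right, at 1.87, and the pair Col9a1 and Col9a2 farthest left, at 0.789.

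Long transcripts tended to stand higher in OIR than short ones, and collagen transcripts are long. The median difference in 20 bins of length ran from -0.09 to 0.23 over all tested genes, with 0.15 in the shortest bin as the exception to a rise with length, and in the bins that hold collagen chains from 0.06 to 0.23. The tested chains had a median implied length of 2976 bases, against 1809 bases for all tested genes, and 31 of the 37 were longer than that. After the median of its length bin was taken from each difference, the chains had a median of 0.13, the fibrillar chains 0.27 and the basement membrane chains -0.63. Col17a1 then stood at 1.55, Col5a3 at 1.304, Col2a1 at 1.19 and Col8a1 at 0.90, so that Col8a1 was no longer 2-fold higher. Spearman's rank correlation of difference with implied length over the 37 chains was -0.09, as a description across genes that share both libraries.

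**Figure D5:**
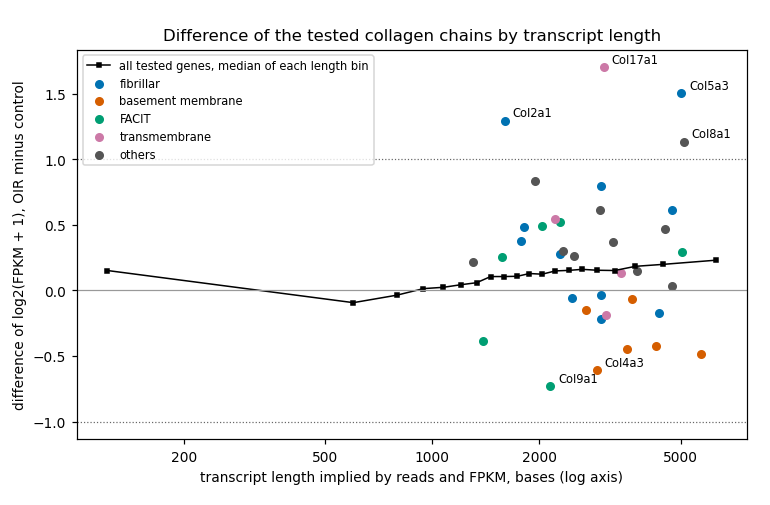
Difference of log2(FPKM + 1), OIR minus control, of the 37 tested collagen chains against the transcript length implied by reads and FPKM (log axis), coloured by class, with the median of all tested genes in 20 length bins as a line and dotted lines at 1 and -1. The basement membrane chains lie below the line at every length and Col17a1, Col5a3, Col2a1 and Col8a1 lie above 1.

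Of 33 genes for the making of collagen 32 were tested. Of these 25 lay above 0, or 78.1% against 64.9% of all tested genes, and 7 below. There were 2 at 2-fold higher, or 6.25% against 3.07%, and 0 at 2-fold lower, and the median difference was 0.28 against 0.11. Pcolce, which speeds the removal of the C-terminal propeptide of fibrillar procollagens, had 2776 reads and 136.2 FPKM in OIR, against 753 reads and 47.8 FPKM in the control, a ratio of 2.85 (2.63 to 3.09). Loxl2, an oxidase that starts crosslinks, stood at 9.90 FPKM in OIR against 4.27 in the control, with a difference of 1.05. Plod2, which hydroxylates lysines of the telopeptides, stood at 16.7 FPKM in OIR against 9.06 in the control, a ratio of 1.84 (1.60 to 2.12). These were the 3 highest differences among members that reached an FPKM of 5. The 3 lowest were those of Loxl1, at 13.4 FPKM in OIR against 15.9 in the control, P3h2, at 7.75 in OIR against 8.71 in the control, and the prolyl hydroxylase subunit P4ha1, at 31.5 in OIR against 34.8 in the control. None of these was below a difference of -0.24. The collagen chaperone Serpinh1 stood between these ends, with 61.6 FPKM in OIR against 44.8 in the control.

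Of 11 collagen receptor genes 8 were tested, 7 above 0 (87.5% against 64.9% of all tested genes) and 1 below. Their median difference was 0.46 against 0.11 over all tested genes. The 1 gene at least 2-fold higher made up 12.5% of those tested, against 3.07% of all tested genes. Mrc2, an endocytic receptor that takes up collagen fragments, was the only 1 at least 2-fold higher, at 12.5 FPKM in OIR against 5.48 in the control, a ratio of 2.27 (1.93 to 2.69). The collagen-activated kinase Ddr1, found in epithelia, stood at 113.9 FPKM in OIR against 76.4 in the control, a ratio of 1.49 (1.42 to 1.56), and Cd44 at 16.8 in OIR against 11.99 in the control. The lowest 3 at this level were Ddr2, the kinase of mesenchymal cells, at 5.79 FPKM in OIR against 5.52 in the control, Itgb1, the shared integrin subunit, at 75.5 in OIR against 63.1 in the control, and Cd44, which is also among the highest because few receptors reached an FPKM of 5. The interval of Ddr2, 0.905 to 1.22, includes 1.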

How the data were processed

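A table deposited for the series covers both libraries. TopHat2 2.0.12, Bowtie2 2.2.3 and HTSeq 0.6.1 with the build mm10 are named in the submitters' processing notes. Not given in the sources used here were their order and settings, the annotation release and the use of strand. Libraries were made from total RNA with the NEBNext Ultra RNA kit, per the labels. Per the file headers, the columns used are read counts, treated as raw, and FPKM values computed by the authors. A further pair of columns, scaled counts by the authors, was treated as a signal that served only to find their scaling factors. The authors' deposited table also gives log2 fold changes, of 1.65 for Col17a1, 1.76 for Col5a3, 1.17 for Col2a1 and 1.07 for Col8a1. Its gene length was used for a second scale of levels. After 5 broken lines were dropped, 47644 genes remained.

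Read counts gave the ratios of read shares and their intervals, and FPKM values gave log2(FPKM + 1) with a pseudocount of 1. Where both libraries had reads (22320 genes), the length implied by reads and FPKM was equal in them within 0.1%. The calculations used Python 3.11.15, NumPy 2.4.6, pandas 2.3.3 and SciPy 1.17.1 and were tested on simulated counts. No test between groups was possible with 1 library each. The members, classes, marker lists and alternatives were chosen with earlier results of these data known. Chains that reached an FPKM of 5 are given in full (33 of 44), others by reads, and from the biosynthesis and receptor lists the 3 highest and 3 lowest at that level are named, apart from Serpinh1, chosen after its values were seen. Markers were named to show their list. Promoter windows were 150 bases, of which 98 are printed for Col17a1, and 35 chains matched a RefSeq entry by symbol. The biosynthesis list named Mia3 a second time as Tango1 and is counted without that name, and Cpamd8 of the ciliary list was not found among the symbols.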

Additional observations from a re-analysis of the deposited data

How the results depend on the processing

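The count of 4 chains at least 2-fold higher stayed between 3 and 5 under 2 other pseudocounts, 3 other filters, TPM, CPM, centring, the authors' factors, reduced totals, length bins and plain ratios, while 0 were 2-fold lower under each of these. It was 3 with length bins, where Col8a1 dropped, and 5 with a pseudocount of 0.01 or with plain ratios, where Col13a1 joined. At 1.5-fold 8 chains were higher and 2 lower, and at 4-fold 0 were higher. The median difference of 0.26 ranged from 0.13 to 0.36, and was 0.13 with the authors' scaling factors, which shift every log2 ratio by -0.14. Over all tested genes the counts of 487 higher and 114 lower were 924 and 254 with a pseudocount of 0.1, 998 and 273 with 0.01, 1013 and 275 with plain ratios, 1447 and 409 at 1.5-fold, 55 and 8 at 4-fold and 427 and 30 with CPM. They were 251 and 27 with an FPKM filter of 5, 356 and 33 with at least 10 reads, 734 higher with TPM and 193 lower with reduced totals.

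Class ratios of read shares were recomputed in ways chosen after seeing the data. With the authors' factors they were 1.33 for fibrillar, 0.805 for basement membrane, 0.784 for FACIT, 1.33 for transmembrane and 1.21 for other chains. With totals that leave out 79 lens, erythrocyte, muscle and mitochondrial genes, which took 20.1% of reads in OIR and 26.4% in the control, they were 1.35, 0.817, 0.796, 1.35 and 1.23. Divided by the median ratio of tested genes, 1.09, they were 1.35, 0.812, 0.791, 1.34 and 1.225. Without the chain with the most reads over both libraries a class had 1.54 (fibrillar, Col1a1), 0.826 (basement membrane, Col4a1), 1.15 (FACIT, Col9a1, reversed), 2.78 (transmembrane, Col23a1) or 1.46 (others, Col18a1). With each of the 44 chains left out of its class in turn, only Col9a1 (FACIT) and Col17a1 (transmembrane, 0.917) moved a class to the other side of 1. All 44 chains together had 1.07, and fell to 0.968 with the authors' factors, 0.983 with the reduced totals and 0.977 relative to the median ratio, each on the other side of 1. Of single chains, Col6a3, Col6a6, Col10a1 and Col19a1 moved to the other side of 1 with the authors' factors, reduced totals or the median ratio, and Col18a1 and Col25a1 also with length bins. No paired analysis was possible because each group is 1 library and the numbers come from accession order. No library could be left out for the same reason. The 7 untested chains had at most 104 reads in a library, which limits what their ratios can show.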
